A study of Mus musculus with 8 samples.

Results

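The genes described here encode receptors, signal transducers and subunits of the RANK, lymphotoxin receptor and NF-kB pathway. They are a given list of 10 genes out of the 25466 genes in the table of counts, chosen with earlier results of these data known. All 10 passed the filter on low counts that left 17006 genes for testing. They were followed across 4 subsets of mouse medullary thymic epithelial cells (mTECs), the thymic cells that display the antigens of other tissues to developing T cells. RNA-seq was performed on FACS-sorted mTECs of wild-type BL6N6 mice a few weeks old, gated as CD45-negative, Epcam-positive and CDR1-negative cells. The sort crossed Tspan8, a tissue-restricted antigen found on a minority of mTECs, with MHCII, a surface marker of maturation. This gave Tspan8negMHCIIlo, Tspan8negMHCIIhi, Tspan8posMHCIIhi and Tspan8posMHCIIlo mTECs, each with 2 biological replicates. According to the paper, late mTECs lower MHCII again, so low MHCII does not mark immature cells alone. It describes Tspan8negMHCIIlo as a mixture of immature and tuft-like (mimetic) mTECs and proposes Tspan8posMHCIIlo as a late stage. All cells shared the wild-type genotype, and no treatment was given. The sources used here do not say whether animals were pooled, nor whether replicates with the same number came from the same mice.

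RANK is the receptor for RANKL on mTECs and their precursors, and the lymphotoxin beta receptor is a related receptor for lymphotoxin and LIGHT. Both can release the kinase NIK from TRAF3-dependent degradation, so that NIK has the p100 precursor encoded by Nfkb2 processed and dimers of RelB with its product enter the nucleus, which is the non-canonical NF-kB pathway. RANK also signals through TRAF6 to the canonical pathway, in which the inhibitor encoded by Nfkbia is degraded and dimers of RelA or c-Rel are set free. Mice without RelB, NIK or TRAF6 are known to have a defective thymic medulla, and RANK signals are known to promote Aire-expressing mTECs.

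Library totals ranged from 1941518 to 7783841 counts with a median of 4857084, and levels are given as CPM, read counts normalised to the library total with TMM scaling. Tspan8 itself had between 3.65 and 14.6 CPM in the Tspan8neg libraries and between 347 and 404 CPM in the Tspan8pos libraries. H2-Ab1, which encodes an MHCII chain, had between 1699.9 and 2074 CPM in Tspan8negMHCIIlo, between 4988 and 5097 in Tspan8negMHCIIhi, between 2431 and 2619 in Tspan8posMHCIIhi and between 489 and 518 in Tspan8posMHCIIlo. The 9 markers of mTECs summed to between 6473 and 12200 CPM in each library, with Epcam at 367 CPM or more. The Tspan8negMHCIIlo libraries stood apart in their markers of other cells. The 12 thymocyte markers summed to 521 CPM in replicate 1 and 1479 CPM in replicate 2 of Tspan8negMHCIIlo, against 78.8 to 252 CPM in the other 6 libraries, and the 5 B cell markers to 483 and 840.0 CPM against 39.6 to 154 CPM. Rag2 was at 0 in replicate 1 of Tspan8posMHCIIhi and of Tspan8posMHCIIlo. The 4 cortical epithelial markers summed to between 89.9 and 188 CPM in the Tspan8neg subsets and between 39.0 and 76.8 CPM in the Tspan8pos subsets. The 6 fibroblast markers reached between 130.3 and 248 CPM in Tspan8neg libraries and between 52.8 and 108 in Tspan8pos libraries, and the 4 endothelial markers between 85.3 and 120.2 CPM in the MHCIIlo subsets and between 23.1 and 28.4 in the MHCIIhi subsets. The 10 myeloid and dendritic cell markers summed to 82.3 and 139 CPM in Tspan8negMHCIIlo, 458 and 524 in Tspan8negMHCIIhi, 471 and 485 in Tspan8posMHCIIhi and 213 in each Tspan8posMHCIIlo replicate. Itgax, Siglech, Adgre1 and Fcer1g of that list were at 0 in replicate 1 of Tspan8posMHCIIlo. The part of such cells in the results was not tested, and in bulk RNA fewer cells of a type cannot be told apart from less RNA per cell.

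Most of the 10 genes had their highest level in Tspan8negMHCIIhi mTECs. By mean CPM 9 of 10 peaked in that subset, and the exception, Ltbr, had its lowest level there. The share of all genes tested that peak there was not counted, so the 9 have no background to be read against. Differences were tested with edgeR's quasi-likelihood test on all 8 libraries, with Benjamini-Hochberg adjustment over the 17006 genes, and a gene counted as called when its adjusted p was below 0.01 and its log2 fold change at least 1 in size. Between MHCIIhi and MHCIIlo mTECs of the Tspan8neg subsets 8 of the 10 genes were called, 7 of them higher in MHCIIhi and Ltbr lower, while 22.7% of all genes tested were called in this comparison, 13.1% higher and 9.67% lower. The median log2 fold change of the 10 genes was 1.17, against -0.04 over all genes tested. In the same comparison 8 of 11 tested thymocyte markers were called lower in MHCIIhi and 5 of 9 tested myeloid and dendritic cell markers higher (Flt3, Zbtb46, Adgre1, Itgam and Lyz2), and their part in the result was not tested. No marker of the latter list was called lower. Itgax and Siglech of that list nevertheless had lower means in MHCIIhi, from 17.5 to 5.16 CPM and from 2.26 to 0.593 CPM. A fit without replicate 2 of Tspan8negMHCIIlo, the library with most thymocyte transcripts, still holds replicate 1, with 521 CPM of thymocyte markers. Such a fit therefore cannot separate their part. Without replicate 1 the log2 difference of Ltbr was -0.84, under the fold limit in size.

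**Figure D1:**
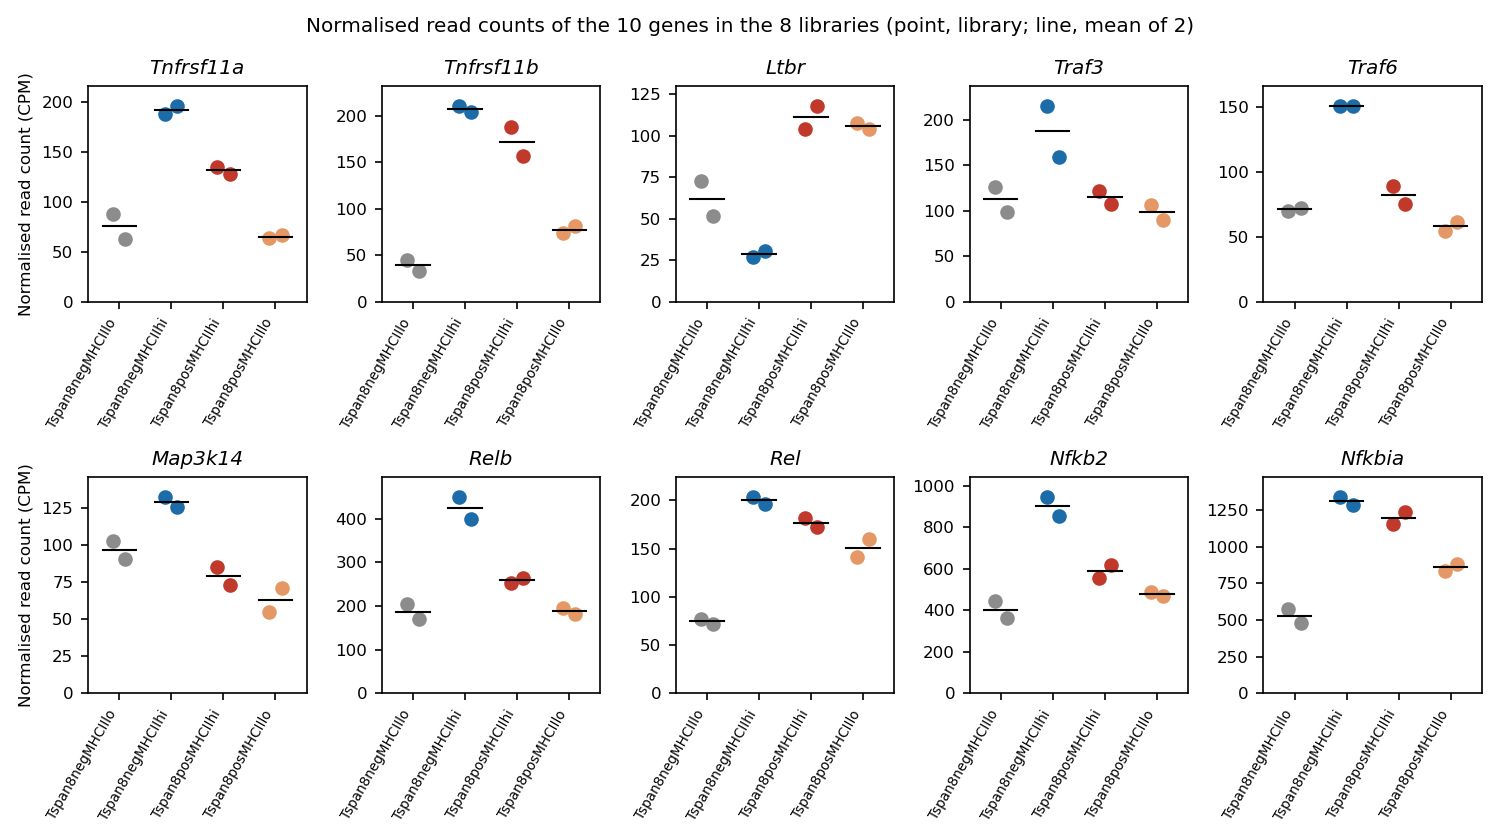
Normalised read counts (CPM, linear axes that start at 0) of the 10 genes in each of the 8 libraries, with a point for each library, a line at the mean of the 2 replicates and the 4 mTEC subsets along the horizontal axis. In 9 panels the Tspan8negMHCIIhi points are the highest pair by mean, while for Ltbr they lie lowest, at 27.0 and 30.8 CPM.

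Among the receptors, Tnfrsf11a (chr1:105780718-105847981, + strand, GRCm38) encodes RANK. It had 88.5 and 63.4 CPM in the replicates of Tspan8negMHCIIlo, 189 and 197 CPM in Tspan8negMHCIIhi, 135 and 128 CPM in Tspan8posMHCIIhi and 63.8 and 66.8 CPM in Tspan8posMHCIIlo. Both MHCIIhi subsets lay above both MHCIIlo subsets without overlap, and the MHCIIlo subsets overlapped each other. The log2 difference between MHCIIhi and MHCIIlo was 1.35 (SE 0.16, adjusted p = 7.7e-05, edgeR's quasi-likelihood test) in Tspan8neg and 1.01 (SE 0.17, adjusted p = 0.0018) in Tspan8pos mTECs. The second call was lost without any 1 of the 4 Tspan8pos libraries, with log2 differences between 0.99 and 1.05. Each such fit leaves 1 library in a subset, and fewer of all genes tested were called in it as well. Those losses cannot be told apart from a general loss of power. With the replicate number as a block this call was also lost, where the difference was just under the limit (0.996). Over all alternatives the adjusted p ranged from 1.1e-05 to 0.0316 (edgeR and DESeq2). Between MHCIIhi subsets the log2 difference of Tspan8pos from Tspan8neg was -0.55 (SE 0.16, adjusted p = 0.0168, edgeR), which did not pass.

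Tnfrsf11b (chr15:54250619-54278484, - strand) encodes osteoprotegerin (OPG), the secreted decoy receptor that binds RANKL away from RANK. Its level was 44.7 and 33.2 CPM in Tspan8negMHCIIlo, 211 and 203 CPM in Tspan8negMHCIIhi, 188 and 156 CPM in Tspan8posMHCIIhi and 73.7 and 81.1 CPM in Tspan8posMHCIIlo. The 4 subsets did not overlap in their libraries, and the 5.33-fold rise from Tspan8negMHCIIlo to Tspan8negMHCIIhi was the largest change among the 10 genes in the 4 comparisons (log2 2.41, SE 0.17, adjusted p = 2.8e-06, edgeR's quasi-likelihood test). In Tspan8pos mTECs the rise with MHCII was 2.21-fold (log2 1.14, SE 0.16, adjusted p = 0.00079, edgeR). It was no longer called without Tspan8posMHCIIhi replicate 1 or without either Tspan8posMHCIIlo replicate (log2 1.03 to 1.23). Each of these fits leaves 1 library in a subset, and fewer of all genes tested were called in it as well. The lost calls cannot be told apart from a general loss of power. Within MHCIIlo mTECs Tnfrsf11b was higher in Tspan8pos cells (log2 1.00, SE 0.18, adjusted p = 0.00093, edgeR), a value at the fold limit. Without Tspan8negMHCIIlo replicate 2, Tspan8negMHCIIhi replicate 1 or 2, Tspan8posMHCIIhi replicate 1 or Tspan8posMHCIIlo replicate 2, and with all libraries thinned to the smallest total, the value was between 0.81 and 0.996 and the call was lost.

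**Figure D2:**
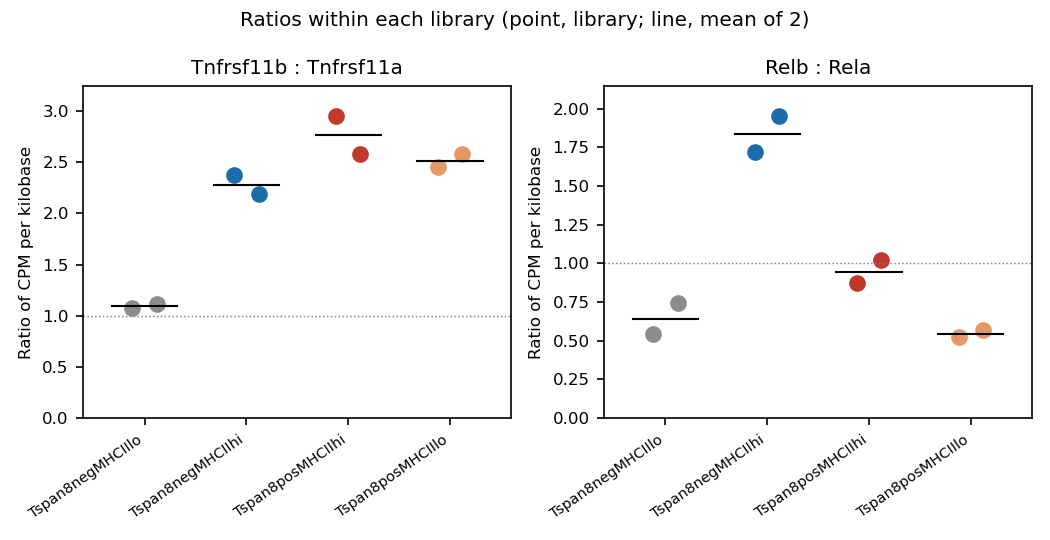
Ratio of the CPM per kilobase of exon of Tnfrsf11b to Tnfrsf11a (left) and of Relb to Rela (right) in each library, with points for libraries, lines for the means of 2 replicates and a dotted line at equal levels. The Tnfrsf11b ratio is 1.07 and 1.11 in Tspan8negMHCIIlo and at least 2.19 elsewhere, and the Relb ratio is 1.72 and 1.95 in Tspan8negMHCIIhi and at most 1.02 elsewhere.

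Per kilobase of exon, decoy and receptor can be set side by side. The ratio of Tnfrsf11b to Tnfrsf11a in CPM per kilobase was 1.07 and 1.11 in the replicates of Tspan8negMHCIIlo, 2.37 and 2.19 in Tspan8negMHCIIhi, 2.95 and 2.58 in Tspan8posMHCIIhi and 2.45 and 2.58 in Tspan8posMHCIIlo. The Tspan8negMHCIIlo subset lay below the other 3, which differed less from each other, and the ratio itself was not tested. The ligand of both, Tnfsf11 (RANKL), is made mainly by lymphoid cells, and it had 29 and 109 counts (8.15 and 25.7 CPM) in Tspan8negMHCIIlo but at most 14 counts and 1.79 CPM in any other library. Its higher level in replicate 2 of that subset goes with the thymocyte markers of the same libraries (521 and 1479 CPM summed), whose part was not tested.

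Ltbr (chr6:125306571-125313885, - strand), the lymphotoxin beta receptor, had its highest levels in the Tspan8pos libraries. It had 72.7 and 51.6 CPM in Tspan8negMHCIIlo, 27.0 and 30.8 CPM in Tspan8negMHCIIhi, 104 and 118 CPM in Tspan8posMHCIIhi and 108 and 104 CPM in Tspan8posMHCIIlo. Every Tspan8pos library lay above every Tspan8neg library, the Tspan8pos subsets overlapped each other, and Tspan8negMHCIIhi lay below Tspan8negMHCIIlo. Within MHCIIhi mTECs Ltbr was 3.83-fold higher in Tspan8pos cells (log2 1.94, SE 0.18, adjusted p = 1.1e-05, edgeR's quasi-likelihood test), and this call held in all alternatives run (log2 1.78 to 2.05). It was the only one of the 10 genes called between the Tspan8 subsets of MHCIIhi mTECs, where 18.5% of all genes tested were called, 11.0% higher in Tspan8pos cells. Within MHCIIlo mTECs the log2 difference was 0.77 (SE 0.18, adjusted p = 0.0049, edgeR), below the fold limit, and 1.03 without Tspan8negMHCIIlo replicate 1. The fall from Tspan8negMHCIIlo to Tspan8negMHCIIhi was -1.09 on the log2 scale (SE 0.18, adjusted p = 0.00069, edgeR), and it was not called without Tspan8negMHCIIlo replicate 1 (-0.84) or Tspan8negMHCIIhi replicate 1 (-0.92). Between MHCII levels of Tspan8pos mTECs the log2 difference was 0.07, with a 95% interval from -0.31 to 0.45.

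The ligands of this receptor were low. Lta, a lymphotoxin subunit, had 59 and 84 counts (12.3 and 10.8 CPM) in Tspan8negMHCIIhi, 12 and 15 counts in Tspan8posMHCIIhi, 2 and 10 counts in Tspan8negMHCIIlo and 0 and 1 counts in Tspan8posMHCIIlo. It was called in both MHCII comparisons and lower in Tspan8pos than in Tspan8neg MHCIIhi mTECs (log2 -2.07, SE 0.49, adjusted p = 0.0066, edgeR's quasi-likelihood test), with no fold given against Tspan8posMHCIIlo, where both libraries lay under the floor of 3 counts. Ltb, the membrane-anchoring subunit, had 29.3 and 27.8 CPM in Tspan8negMHCIIhi, 9.76 and 7.52 CPM in Tspan8posMHCIIhi and 9.89 to 23.3 CPM in the MHCIIlo libraries, and was lower in Tspan8pos than in Tspan8neg MHCIIhi mTECs (log2 -1.72, SE 0.26, adjusted p = 0.00038, edgeR). Tnfsf14 (LIGHT) had between 1 and 13 counts in each library and Cd40lg between 0 and 4, and neither passed the filter for testing.

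The adaptors Traf3 (chr12:111166370-111267153, + strand), which holds NIK levels down, and Traf6 (chr2:101678429-101701669, + strand), the ubiquitin ligase downstream of RANK, also peaked in Tspan8negMHCIIhi. Traf6 had 70.2 and 72.4 CPM in Tspan8negMHCIIlo, 151 CPM in both replicates of Tspan8negMHCIIhi, 89.0 and 75.4 CPM in Tspan8posMHCIIhi and 54.4 and 61.7 CPM in Tspan8posMHCIIlo. The 4 subsets did not overlap, and the rise with MHCII in Tspan8neg mTECs was 2.12-fold (log2 1.08, SE 0.14, adjusted p = 0.00013, edgeR's quasi-likelihood test). Traf3 had 126 and 99.0 CPM in Tspan8negMHCIIlo, 216 and 159 CPM in Tspan8negMHCIIhi, 122 and 108 CPM in Tspan8posMHCIIhi and 106 and 90.2 CPM in Tspan8posMHCIIlo. Its Tspan8negMHCIIhi libraries lay above all others and the remaining 3 subsets overlapped. The log2 difference between MHCII levels in Tspan8neg mTECs was 0.74 (SE 0.18, adjusted p = 0.0072, edgeR), which is below the fold limit.

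Map3k14 (chr11:103219762-103267472, - strand) encodes NIK, the kinase at the head of the non-canonical pathway. Its level was 103 and 90.5 CPM in Tspan8negMHCIIlo, 133 and 126 CPM in Tspan8negMHCIIhi, 85.6 and 72.9 CPM in Tspan8posMHCIIhi and 55.0 and 71.0 CPM in Tspan8posMHCIIlo. Both Tspan8neg subsets lay above both Tspan8pos subsets without overlap. None of the 4 comparisons of Map3k14 was called. The log2 difference of Tspan8pos from Tspan8neg was -0.71 (SE 0.16, adjusted p = 0.0046, edgeR's quasi-likelihood test) within MHCIIhi and -0.59 (SE 0.16, adjusted p = 0.0141, edgeR) within MHCIIlo mTECs. An exon of Map3k14 overlaps 1700028N14Rik on the same strand, a gene with between 0 and 2 counts per library.

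Of the NF-kB subunits, Relb (chr7:19606217-19629438, - strand), the transcription factor of the non-canonical pathway, had 204 and 171 CPM in Tspan8negMHCIIlo, 450.0 and 399 CPM in Tspan8negMHCIIhi, 254 and 265 CPM in Tspan8posMHCIIhi and 195 and 181 CPM in Tspan8posMHCIIlo. The MHCIIlo subsets overlapped and were the lowest, and Tspan8negMHCIIhi lay above every other library. Relb was 2.27-fold higher in MHCIIhi than in MHCIIlo Tspan8neg mTECs (log2 1.18, SE 0.14, adjusted p = 6.6e-05, edgeR's quasi-likelihood test). Between Tspan8 subsets its log2 difference was 0.00 within MHCIIlo (95% interval -0.31 to 0.31) and -0.71 within MHCIIhi mTECs (SE 0.14, adjusted p = 0.0019, edgeR), the latter below the fold limit.

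Nfkb2 (chr19:46304320-46312385, + strand), the gene of the p100 precursor and its product p52, moved much as Relb did. It had 443 and 361 CPM in Tspan8negMHCIIlo, 944 and 854 CPM in Tspan8negMHCIIhi, 555 and 619.5 CPM in Tspan8posMHCIIhi and 485 and 466 CPM in Tspan8posMHCIIlo. The Tspan8negMHCIIhi libraries lay above all others, and the rise from Tspan8negMHCIIlo was 2.24-fold (log2 1.16, SE 0.14, adjusted p = 7.3e-05, edgeR's quasi-likelihood test). The exons of Nfkb2 overlap those of Psd on the opposite strand, which had between 6 and 34 counts per library, and those of AC114539.1, which is not in the table.

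Rel (chr11:23736847-23770970, - strand), which encodes c-Rel of the canonical pathway, divided the subsets differently. Its level was 77.2 and 71.7 CPM in Tspan8negMHCIIlo, 203 and 196 CPM in Tspan8negMHCIIhi, 182 and 172 CPM in Tspan8posMHCIIhi and 141 and 159 CPM in Tspan8posMHCIIlo. Tspan8negMHCIIlo was far below the other 3 subsets, which lay close together. Rel was 2.69-fold higher in MHCIIhi than in MHCIIlo Tspan8neg mTECs (log2 1.43, SE 0.13, adjusted p = 1.5e-05, edgeR's quasi-likelihood test). Within MHCIIlo mTECs it was higher in Tspan8pos cells (log2 1.02, SE 0.13, adjusted p = 0.00013, edgeR), just past the fold limit, and the call was lost without Tspan8negMHCIIlo replicate 2 (0.97), without Tspan8posMHCIIlo replicate 2 (0.93) and after thinning (0.995). Rel and Tnfrsf11b were the 2 of 10 genes called between the Tspan8 subsets of MHCIIlo mTECs, where 21.4% of all genes tested were called, 12.1% higher in Tspan8pos cells. In the same comparison 6 of 11 tested thymocyte markers were called lower in Tspan8pos cells, and their part was not tested.

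Nfkbia (chr12:55489410-55492647, - strand) encodes the inhibitor IkB alpha and is itself a classical NF-kB target. It had 573 and 479 CPM in Tspan8negMHCIIlo, 1339.7 and 1283 CPM in Tspan8negMHCIIhi, 1156 and 1235 CPM in Tspan8posMHCIIhi and 835 and 885 CPM in Tspan8posMHCIIlo. The 4 subsets did not overlap, in the same order as for Rel, Tnfrsf11b and Nfkb2. Nfkbia rose 2.49-fold from Tspan8negMHCIIlo to Tspan8negMHCIIhi (log2 1.32, SE 0.13, adjusted p = 1.8e-05, edgeR's quasi-likelihood test). Within MHCIIlo mTECs the log2 difference of Tspan8pos from Tspan8neg was 0.71 (SE 0.13, adjusted p = 0.0010, edgeR), under the fold limit. Per kilobase of exon Nfkbia was the most abundant of the 10 genes in each subset, at 327 ± 41.5 CPM per kilobase (SD, n = 2) in Tspan8negMHCIIlo and 814 ± 25.0 (SD, n = 2) in Tspan8negMHCIIhi, and Nfkb2 came next, at 87.7 ± 12.6 and 196 ± 13.9 (SD, n = 2).

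The other subunits, Nfkb1 (p50 and its precursor p105) and Rela, did not follow Relb and Nfkb2. Nfkb1 had between 218 and 362 CPM over the 8 libraries, and Rela between 162 and 296 CPM, with every subset overlapping another in both genes. Neither was called in any comparison, and between MHCII levels of Tspan8neg mTECs the log2 differences were 0.22 for Nfkb1 (95% interval -0.24 to 0.68) and -0.38 for Rela (95% interval -0.85 to 0.09). The ratio of Relb to Rela in CPM per kilobase was 0.544 and 0.743 in Tspan8negMHCIIlo, 1.72 and 1.95 in Tspan8negMHCIIhi, 0.875 and 1.02 in Tspan8posMHCIIhi and 0.521 and 0.569 in Tspan8posMHCIIlo. Tspan8negMHCIIhi was the subset with more Relb than Rela transcript per length in both replicates.

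Sequence upstream of these genes is shown for Nfkb2, Nfkbia and Rel, which rose with MHCII in Tspan8neg mTECs, and for Ltbr, which fell. The 250 bases before each RefSeq start (GRCm38.p6), found for 8 of the 10 genes, were searched on both strands for the kappa B consensus of 10 bases, the site that NF-kB dimers bind, with overlapping matches kept. A match was present for Traf3, Rel, Nfkb2 and Nfkbia and not for Tnfrsf11a, Ltbr, Traf6 and Map3k14. Of the genes without a match, Tnfrsf11a and Traf6 were also called higher with MHCII in Tspan8neg mTECs, and their windows are not shown. Tnfrsf11b and Relb had no entry. That is 50% of the 8 genes, 34.7% of 49 other genes of the pathway and 4.46% of all 27025 genes with a window (3.90% of 32851 windows). Capitals mark the matches, and each window is written 5′ to 3′ on the strand of its gene: Nfkb2 at chr19:46304487-46304736 (+), the first of 3 windows for its starts, Nfkbia at chr12:55492648-55492897 (-), Rel at chr11:23770970-23771219 (-) and Ltbr at chr6:125313886-125314135 (-).
Nfkb2: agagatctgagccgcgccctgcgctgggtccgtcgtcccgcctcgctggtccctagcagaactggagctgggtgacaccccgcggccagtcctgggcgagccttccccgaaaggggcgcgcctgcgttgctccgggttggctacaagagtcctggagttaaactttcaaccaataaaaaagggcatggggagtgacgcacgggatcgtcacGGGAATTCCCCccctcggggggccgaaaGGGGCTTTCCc
Nfkbia: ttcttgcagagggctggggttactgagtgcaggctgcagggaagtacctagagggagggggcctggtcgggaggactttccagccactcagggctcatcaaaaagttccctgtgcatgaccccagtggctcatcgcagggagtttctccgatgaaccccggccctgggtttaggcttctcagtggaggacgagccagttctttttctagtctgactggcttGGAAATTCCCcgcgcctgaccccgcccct
Rel: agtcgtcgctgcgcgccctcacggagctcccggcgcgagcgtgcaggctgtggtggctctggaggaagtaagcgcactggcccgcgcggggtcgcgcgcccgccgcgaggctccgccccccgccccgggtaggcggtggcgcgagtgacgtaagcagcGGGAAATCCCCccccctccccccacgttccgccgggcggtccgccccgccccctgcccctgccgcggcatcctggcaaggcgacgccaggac
Ltbr: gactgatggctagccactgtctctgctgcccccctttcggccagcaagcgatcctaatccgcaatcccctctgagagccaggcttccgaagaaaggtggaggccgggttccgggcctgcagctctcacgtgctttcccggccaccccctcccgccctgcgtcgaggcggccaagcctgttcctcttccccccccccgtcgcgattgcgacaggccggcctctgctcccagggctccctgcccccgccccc
In the Nfkb2 window 2 of the 3 matches overlap, from 39 to 29 bases before the start, and the third ends 2 bases before it. The Nfkbia match lies 29 to 20 bases and the 2 overlapping Rel matches 92 to 82 bases before the start. These matches describe letters in a window, and binding was not measured.

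The comparisons of the 4 subsets share libraries, so their values are given side by side. In the MHCIIhi to MHCIIlo comparison of Tspan8pos mTECs all 10 log2 differences were above 0, with a median of 0.39 against 0.01 over all genes tested, but the 2 genes called were Tnfrsf11a and Tnfrsf11b, where 7.21% of all genes tested were called, 4.59% higher in MHCIIhi. Relb (0.47), Traf6 (0.49) and Nfkbia (0.47) had adjusted p between 0.0244 and 0.0422 (edgeR's quasi-likelihood test). Between the Tspan8 subsets of MHCIIhi mTECs 9 of the 10 log2 differences were below 0, with a median of -0.58 against -0.03 over all genes. At an adjusted p under 0.01 without a limit on the fold change, 5 of these were lower in Tspan8pos cells (Traf3, Traf6, Map3k14, Relb and Nfkb2) against 10% of all genes tested. Their log2 differences lay between -0.88 and -0.61, and Rel (-0.18), Nfkbia (-0.13) and Tnfrsf11b (-0.27) had adjusted p of 0.20 or more (edgeR). In MHCIIlo mTECs the median was 0.12 against -0.03 over all genes, and 6 of 10 differences were above 0.

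**Figure D3:**
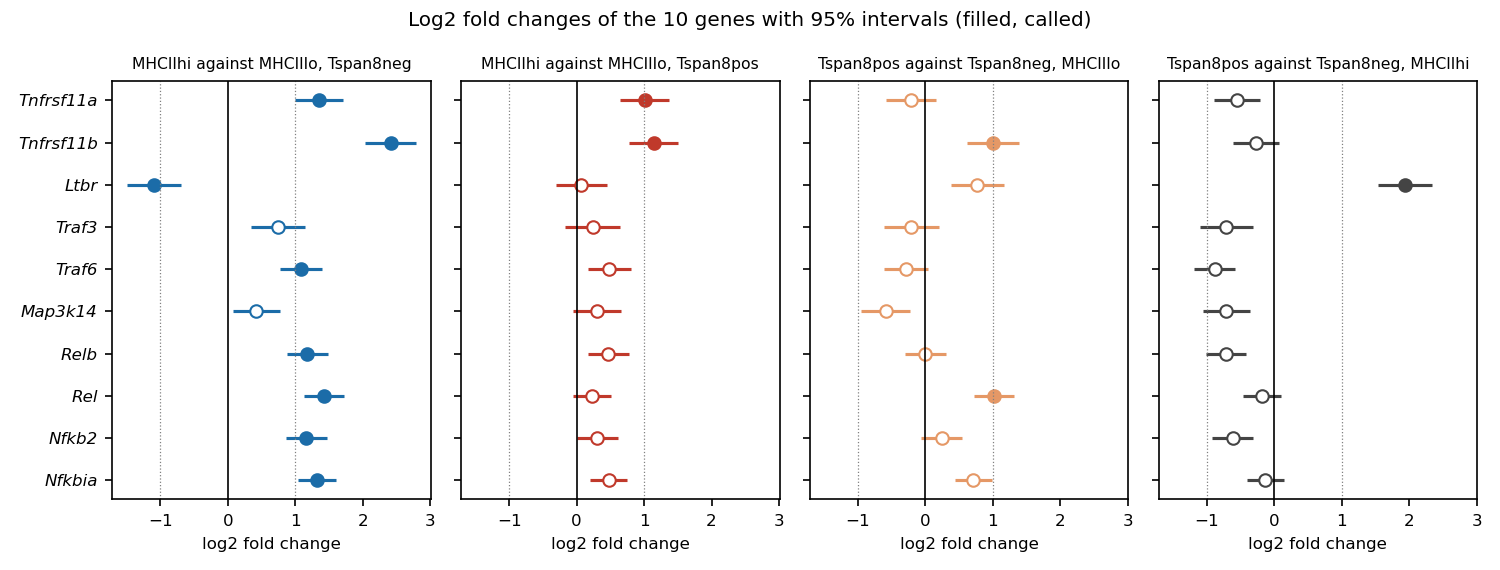
Log2 fold changes of the 10 genes (points) with 95% intervals (lines) in the 4 comparisons along MHCII and Tspan8, with filled points for genes called and dotted lines at the fold limit. In Tspan8neg mTECs 7 genes lie right of the limit and Ltbr left of it, and in the comparison of MHCIIhi mTECs Ltbr alone is filled, at 1.94.

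Whether MHCII-associated differences were unequal in Tspan8neg and Tspan8pos mTECs was tested by the interaction term, which is the log2 difference between MHCII levels in Tspan8neg minus that in Tspan8pos mTECs. It was called for 2 of the 10 genes, while 4.60% of all genes tested were called. For Tnfrsf11b it was 1.27 (SE 0.23, adjusted p = 0.0063, edgeR's quasi-likelihood test) and for Rel 1.20 (SE 0.19, adjusted p = 0.0025, edgeR). Both calls were lost when any 1 library of Tspan8negMHCIIhi, Tspan8posMHCIIhi or Tspan8posMHCIIlo was left out. The values were then from 1.14 to 1.38 for Tnfrsf11b and from 1.09 to 1.29 for Rel. Each such fit leaves 1 library in a subset, and fewer of all genes tested were called in it as well. The lost calls therefore cannot be told apart from a general loss of power. Over all alternatives the adjusted p ranged from 9.2e-05 to 0.0497 for Tnfrsf11b and from 5.5e-06 to 0.0248 for Rel (edgeR and DESeq2). Ltbr had an interaction of -1.16 (SE 0.25, adjusted p = 0.0128, edgeR), which missed the threshold. It was called without the filter on low counts (-1.10, adjusted p = 0.0056), with the replicate block (-1.16, adjusted p = 0.0070) and without Tspan8negMHCIIlo replicate 2 (-1.41, adjusted p = 0.00058), all by edgeR, in a range of adjusted p from 0.00058 to 0.0756 over the alternatives (edgeR and DESeq2). Nfkb2 (0.86), Nfkbia (0.84) and Relb (0.71) had adjusted p between 0.0116 and 0.0370 (edgeR), and the interval of Tnfrsf11a (0.34) ran from -0.17 to 0.84.

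A wider list of 63 other genes of the pathway was examined in the same fit, of which 61 were tested. In Tspan8neg mTECs 24 of these were higher and 11 lower in MHCIIhi, with a median log2 fold change of 0.42 against -0.04 over all genes. Without Tspan8negMHCIIlo replicate 2 the count was 31 in place of 35. These are 39.3% and 18.0% of the 61, against 13.1% and 9.67% of all genes tested. Between MHCII levels of Tspan8pos mTECs 8 were higher and 1 lower, the 8 being 13.1% of the 61 against 4.59% of all genes. Fewer of the 61 were called without Tspan8posMHCIIlo replicate 2. That fit leaves 1 library in the subset, and fewer of all genes tested were called in it as well. Along Tspan8, 6 were higher and 7 lower in Tspan8pos cells within MHCIIlo, a share near the 21.4% of all genes called there. Within MHCIIhi 6 were higher (9.84% of the 61, near the 11.0% of all genes). A further 13 were lower (21.3% of the 61), where 1267 of all 17006 genes tested were called lower. In either direction 18.5% of all genes were called there. The interaction was called for 8, with 6.56% of the 61 in each direction, where 4.60% of all genes were called in either. That count was 4 without any 1 library of Tspan8negMHCIIhi or Tspan8posMHCIIhi, 2 without Tspan8posMHCIIlo replicate 2 and 17 without Tspan8negMHCIIlo replicate 2. The number called over all genes tested fell and rose in the same fits, each of which leaves 1 library in a subset. The groups of the list differed in how evenly they moved.

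Among receptors and ligands, 4 of 11 tested genes rose and 4 fell with MHCII in Tspan8neg mTECs, 36.4% each against 13.1% and 9.67% of all genes tested. Cd40, the receptor that acts beside RANK on mTECs, had 36.8 and 42.2 CPM in Tspan8negMHCIIlo, 218 and 204 CPM in Tspan8negMHCIIhi, 58.0 and 52.2 CPM in Tspan8posMHCIIhi and 13.2 and 10.2 CPM in Tspan8posMHCIIlo. It was called in all 4 comparisons, with log2 2.41 and 2.31 for MHCII and -1.83 and -1.93 for Tspan8, and its interaction was 0.10 (adjusted p = 0.91, edgeR's quasi-likelihood test). Tnf, the founding ligand of the family, had 5.06 and 8.49 CPM in Tspan8negMHCIIlo, 79.0 and 99.5 CPM in Tspan8negMHCIIhi, 41.8 and 54.9 CPM in Tspan8posMHCIIhi and 21.4 and 30.0 CPM in Tspan8posMHCIIlo. Its rise with MHCII in Tspan8neg mTECs was 13.0-fold (log2 3.70, SE 0.27, adjusted p = 3.3e-06, edgeR).

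The TNF receptor Tnfrsf1a was, like Ltbr, lowest in Tspan8negMHCIIhi and higher in every Tspan8pos than in every Tspan8neg library. It had 125 and 88.9 CPM in Tspan8negMHCIIlo, 49.5 and 47.8 CPM in Tspan8negMHCIIhi, 147 and 130.0 CPM in Tspan8posMHCIIhi and 165 and 150.3 CPM in Tspan8posMHCIIlo. It was lower in MHCIIhi than in MHCIIlo Tspan8neg mTECs (log2 -1.13, SE 0.17, adjusted p = 0.00039, edgeR's quasi-likelihood test) and higher in Tspan8pos than in Tspan8neg MHCIIhi mTECs (log2 1.51, SE 0.17, adjusted p = 5.0e-05, edgeR). Tnfrsf12a, the TWEAK receptor, and Tnfrsf1b also fell with MHCII in Tspan8neg mTECs (log2 -1.98 and -1.31). Their Tspan8negMHCIIlo replicates differed in opposite orders, at 188 and 79.7 CPM for Tnfrsf12a and 74.7 and 174 CPM for Tnfrsf1b. In that subset the thymocyte, B cell, myeloid and dendritic, fibroblast and cortical epithelial marker sums were higher in replicate 2. The endothelial sum was not, and the part of such cells was not tested. Tnfsf11 fell as well (log2 -3.35), Lta rose, and Tnfrsf13c rose from between 1.65 and 1.69 to between 6.65 and 8.33 CPM.

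Among 14 adaptors and kinases, Traf1, Birc2 and Birc3 rose with MHCII in Tspan8neg mTECs and Traf5 and Tab1 fell, 21.4% and 14.3% against 13.1% and 9.67% of all genes tested. Birc2 and Birc3 are the ubiquitin ligases that act with TRAF3 on NIK. Birc3 had 272 and 184 CPM in Tspan8negMHCIIlo, 559.6 and 508 CPM in Tspan8negMHCIIhi, 313 and 299.7 CPM in Tspan8posMHCIIhi and 213 and 211 CPM in Tspan8posMHCIIlo. The rise was 1.23 on the log2 scale for Birc3, 1.11 for Birc2 and 1.60 for Traf1, and Birc2 was also lower in Tspan8pos than in Tspan8neg MHCIIhi mTECs (log2 -1.31, SE 0.17, adjusted p = 0.00013, edgeR's quasi-likelihood test). Traf5 fell from 28.1 CPM in both replicates to 10.2 and 8.72 CPM and Tab1 from 34.3 and 35.8 to 11.0 and 13.1 CPM. The IKK subunits Chuk, Ikbkb and Ikbkg were not called in any comparison, with Ikbkb closest (log2 0.90 in Tspan8neg mTECs, adjusted p = 0.00033, edgeR).

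The genes listed as inhibitors, a group that also takes in nuclear IkB family members, moved in part with Nfkbia. Of 13, Nfkbie, Nfkbid, Tnip1, Tnip3 and Otulin rose with MHCII in Tspan8neg mTECs and Nfkbiz fell, 38.5% and 7.69% against 13.1% and 9.67% of all genes tested. Nfkbie, an IkB that holds c-Rel and RelA in the cytoplasm, had 182 and 156 CPM in Tspan8negMHCIIlo, 404 and 359 CPM in Tspan8negMHCIIhi, 150.2 and 165 CPM in Tspan8posMHCIIhi and 96.2 and 115 CPM in Tspan8posMHCIIlo. It was lower in Tspan8pos than in Tspan8neg MHCIIhi mTECs (log2 -1.27, SE 0.15, adjusted p = 5.5e-05, edgeR's quasi-likelihood test). Nfkbiz, a nuclear IkB, lay lowest in Tspan8negMHCIIhi, at 139 and 165 CPM against 263 to 408 CPM elsewhere, and so did N4bp1, at 42.8 and 30.8 CPM against 56.6 to 125 CPM. Tnip3 was instead highest in Tspan8posMHCIIhi, at 100.4 and 87.8 CPM against 12.1 and 13.0 CPM in Tspan8negMHCIIlo, and was called in all 4 comparisons. Tnfaip3, the deubiquitinase A20, was called in none, with its largest log2 difference, -0.53, between MHCII levels of Tspan8pos mTECs (adjusted p = 0.017, edgeR).

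**Figure D4:**
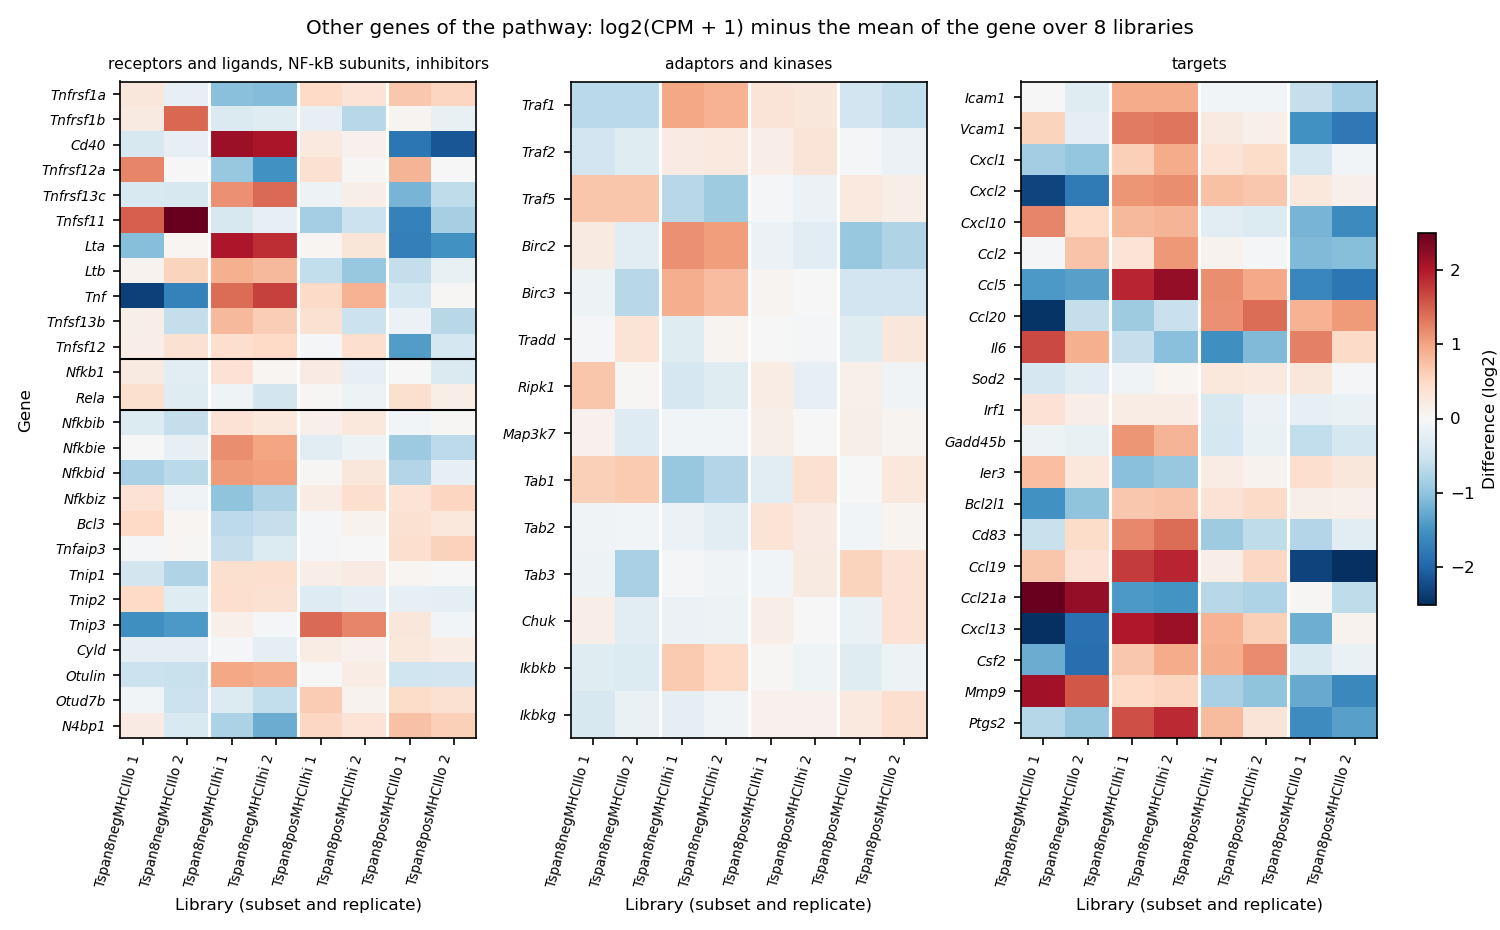
Levels of the 61 tested pathway genes in the 8 libraries as log2(CPM + 1) minus the mean of each gene over all libraries, by group of genes (rows, divided by black lines), with libraries in columns and red for values above the mean. Cd40, Birc3, Nfkbie and Ptgs2 are reddest in Tspan8negMHCIIhi, where Tnfrsf1a, Traf5 and Ier3 are bluest.

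Of 21 targets of NF-kB, 12 rose and 4 fell with MHCII in Tspan8neg mTECs, 57.1% and 19.0% against 13.1% and 9.67% of all genes tested. Icam1, an adhesion molecule, had 616 and 491 CPM in Tspan8negMHCIIlo, 1158 and 1150.1 CPM in Tspan8negMHCIIhi, 576 and 580.5 CPM in Tspan8posMHCIIhi and 408 and 338 CPM in Tspan8posMHCIIlo, and rose with log2 1.06. Ptgs2, the inducible cyclooxygenase, had 120.5 and 102 CPM in Tspan8negMHCIIlo, 606 and 722 CPM in Tspan8negMHCIIhi, 343 and 248 CPM in Tspan8posMHCIIhi and 66.0 and 76.7 CPM in Tspan8posMHCIIlo. Its rise with MHCII was called in both Tspan8neg (log2 2.58) and Tspan8pos mTECs (log2 2.04), as was that of Ccl5 (3.59 and 3.0), Vcam1 (1.12 and 1.87) and Ccl19 (1.31 and 3.38). Ier3, an early response gene, was lowest in Tspan8negMHCIIhi, at 26.6 and 28.3 CPM against 59.3 to 94.4 CPM elsewhere.

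Chemokine genes of the list differed widely between the subsets. Ccl20 had 203 and 242 CPM in Tspan8posMHCIIhi and 169 and 193 CPM in Tspan8posMHCIIlo, against 16.0 to 62.3 CPM in the Tspan8neg libraries, and was called higher in Tspan8pos cells at both MHCII levels (log2 2.23 within MHCIIlo and 1.99 within MHCIIhi). Cxcl10 was lower in Tspan8pos cells at both levels (log2 -2.29 and -1.14), as was Mmp9, a metalloproteinase (-3.39 and -1.45). Ccl21a, a chemokine for T cells, had 4276 and 2832 CPM in Tspan8negMHCIIlo and between 217 and 628 CPM in the other libraries. Ccl21a and Ccl19 have near-identical copies elsewhere in the mouse genome, so that their counts are uncertain. Cxcl13 had 0 and 3 counts in Tspan8negMHCIIlo, which is at or under the floor, and 114 and 205 counts in Tspan8negMHCIIhi.

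Genes elsewhere in the transcriptome with the profile most like each of the 10 were found by Pearson's r of log2(CPM + 1) over the 8 libraries, among the 11048 tested genes whose mean was 10 CPM or more. These r values describe the differences between 4 subsets of 2 libraries each, which also differ in depth and in markers of other cells. Tnfrsf11a was most like Gcnt4 (r = 0.997), Lpo and Mllt11, and 163 genes reached an r of at least 0.95 with it. For Tnfrsf11b the nearest were Kcnk6 (0.994), Cop1 and Pld1, and for Nfkbia Dtx2 (0.992), Nfkbib and again Kcnk6. Ltbr was most like Gsn (0.993), Sgk1 and Tmem164, with 192 genes at 0.95 or more. The nearest to Relb were Aif1l (0.990), Neo1 and Nrg1, to Nfkb2 Crtac1 (0.987), Inf2 and Txndc15, and to Rel Lama1 (0.995), Atp6v1h and Ptpn13. Traf6 was most like Kynu (0.995), Nid1 and Grin2d, and Map3k14 most like Eif3e (0.993), Gm14698 and Dhdh. Traf3 had the fewest close profiles, 8 genes at 0.95 or more, led by Tmem63b (0.976), Sar1a and Mex3c.

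Within the list of 10, profiles were compared by the same measure, without clustering. Relb and Nfkb2 had an r of 0.979, Rel and Nfkbia 0.974 and Tnfrsf11b and Nfkbia 0.984, whereas Relb and Rel had 0.696 and Map3k14 and Rel 0.101. Nfkb2 had 0.888 with Tnfrsf11b and 0.874 with Nfkbia, above its 0.863 with Traf6 and 0.849 with Traf3. Ltbr had a negative r with each of the other 9, from -0.88 with Map3k14 to -0.11 with Rel. Relb, Nfkb2, Traf6 and Traf3 shared a level in Tspan8posMHCIIhi nearer to the MHCIIlo subsets than to Tspan8negMHCIIhi, while Rel, Nfkbia and Tnfrsf11b had levels in Tspan8posMHCIIhi near those of Tspan8negMHCIIhi (log2 differences of -0.18, -0.13 and -0.27).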

How the data were processed

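Data were the 8 RNA-seq libraries described above, grouped by the subset and replicate number in the sample titles. The authors' deposited table holds estimated counts for each gene, whole numbers without normalization, made with Salmon 1.8.0 on the mouse Gencode transcriptome according to the submitters' processing notes (mm10) and the study's methods, and used DESeq2 1.30.0 for their own tests. The paper describes cDNA pre-amplification with tagmentation and the sample descriptions a stranded mRNA kit, so whether strand was used is unsettled and genes with exons on the opposite strand are given as overlapped. Gene symbols came from GENCODE vM21 on GRCm38, a later release than the authors used, and matched 25336 of 25466 identifiers. Coordinates are those of vM21 and exon lengths are its merged exons.

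Counts were analysed with edgeR 4.0.16 and limma 3.58.1 in R 4.3.3, using TMM scaling, filterByExpr and glmQLFit over the 4 subsets, with two-sided p-values. Calls required an adjusted p below 0.01 and a log2 fold change of 1 or more in size. Standard errors were taken as the size of the log2 fold change over the root of F. An exact permutation test of 2 against 2 libraries cannot reach 0.05, so none is given, and p-values measure the spread between replicates as deposited. The floor is 3 counts, 0.385 to 1.65 CPM, and covers counting error only, since PCR reads that carry no molecular identifier do not count independent molecules. The members and lists were chosen with earlier results of these data known. Named genes are the 10 members, the pathway genes called in any comparison, Nfkb1, Rela, 4 ligands and the 3 most alike genes per member, and of the pathway genes called the text gives values for those that show each group's pattern. Chuk, Ikbkb, Ikbkg and Tnfaip3 fall outside this rule and were named after their values were seen. Alternatives were DESeq2 1.42.0, its size factors in edgeR, no filter, at least 10 counts in 4 libraries, only the 4 libraries compared, a replicate block, an adjusted p of 0.05, no fold limit, leaving out each library and thinning to 1941518 counts. Replicates of a subset differed by more than counting noise. The edgeR and DESeq2 tests were tried on simulated counts with known changes.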

Additional observations from a re-analysis of the deposited data

Results flagged for a closer look

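The Tspan8 difference was unequal at the MHCII levels by the interaction term of edgeR's quasi-likelihood test, given as the log2 difference of Tspan8pos from Tspan8neg in MHCIIlo minus that in MHCIIhi mTECs, for 2 of the 10 genes and 8 other genes of the pathway. It was 1.27 for Tnfrsf11b and 1.20 for Rel. Among the ligands it was 2.85 for Tnf (adjusted p = 0.00093, edgeR). Among the targets it was 2.66 for Cxcl2, 1.66 for Bcl2l1, an inhibitor of apoptosis, and -1.34 for Ier3. It was -2.07 for Ccl19 and -3.54 for Ccl21a, whose counts are uncertain because of near-identical copies, and -1.94 for Mmp9. The fitted 4.85 for Cxcl13 is not a resolved fold, because Tspan8negMHCIIlo had 0 and 3 counts. All 10 values have adjusted p between 0.00023 and 0.0063 (edgeR). Thymocyte markers were highest in Tspan8negMHCIIlo, a subset that enters each of these values, and their part was not tested.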

How the results depend on the processing

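Of 840 values of the 50 log2 fold changes under the alternatives, 785 kept direction and side of the threshold, 31 lost a call, 14 gained one and 10 changed sign, all of them uncalled. For Relb along Tspan8 in MHCIIlo the sign changed to -0.0012 with at least 10 counts in 4 libraries. With single libraries left out, where the lone replicate is assumed to vary like the other subsets, signs changed within the ranges -0.12 to 0.12 for Relb and -0.43 to 0.040 for Tnfrsf11a along Tspan8 in MHCIIlo, -0.023 to 0.18 for Ltbr along MHCII in Tspan8pos and -0.12 to 0.23 for Map3k14 in the interaction. Without a fold limit, 4 of the 10 genes were called along Tspan8 in MHCIIlo and 6 in MHCIIhi. Of all 17006 genes tested, 2680 were then called higher and 2073 lower in MHCIIlo, and 2554 higher and 1704 lower in MHCIIhi. Thinning left 0 called by edgeR in MHCIIlo, with 5 at an unadjusted p under 0.05, while DESeq2 on the full counts called 2. Leaving out single libraries gave 0 to 3 genes along Tspan8 in MHCIIlo, 1 in MHCIIhi, 7 to 9 along MHCII in Tspan8neg, 0 to 2 in Tspan8pos and 0 to 3 for the interaction, and where 0 were called by edgeR, 5 to 8 had an unadjusted p under 0.05. DESeq2 called 2 in each of the comparisons that reached 0. For the pathway list these ranges were 10 to 18, 15 to 21, 28 to 35, 4 to 10 and 2 to 17, the lowest of the last 2 without Tspan8posMHCIIlo replicate 2 and the 17 without Tspan8negMHCIIlo replicate 2. Over all genes tested the number called also varied with the library left out. An adjusted p of 0.05 gave 15 pathway genes in the interaction, where 873 of all 17006 genes tested were called higher and 881 lower. Differences between replicates correlated only weakly across subsets (0.004 to 0.0924), though all of these correlations were above 0. Thymocyte markers summed higher in replicate 2 than in replicate 1 of every subset. Whether the replicate numbers pair the samples was therefore left unsettled. The replicate block gave 1 of the 10 genes for MHCII in Tspan8pos and 14 pathway genes in the interaction. Of all 17006 genes tested it called 895 higher and 509 lower in the first, and 570 and 666 in the second.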
